A study of Homo sapiens with 6 samples.

Results

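The regions described here are the open chromatin regions of 5 windows of 3 Mb each in the human prostate cancer cell line 22Rv1 during degradation of the transcription factor FOXA1. ATAC-seq, in which a transposase cuts and tags accessible DNA, was run at 0h, 1h and 24h of FOXA1_dTAG treatment, with 2 libraries per time. Every library carries the same label, FOXA1_dTAG, and the groups differ only in time. The labels name neither the degrader nor its dose, give no count of clones for the tagged line, and do not say whether replicates were separate cultures, so the spread between them may be technical. Peaks of the 6 deposited lists were merged wherever they overlapped by at least 1 bp, and a region belonged to a window when it lay wholly inside it in hg19. The windows held 598 of the 167726 merged regions on the 22 autosomes and X. On chromosome 5, window 5a runs from 19 to 22 Mb and holds 114 regions, and window 5b runs from 28 to 31 Mb and holds 94. On chromosome 8, window 8a runs from 107 to 110 Mb with 188 regions, and window 8b from 111 to 114 Mb with 105. Window 14a runs from 41 to 44 Mb of chromosome 14 with 97 regions.

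FOXA1 is a forkhead pioneer factor: it can bind its site on nucleosomal DNA and helps keep luminal prostate enhancers accessible to other factors, among them the androgen receptor. A dTAG fusion lets a small molecule bring the tagged protein to an E3 ubiquitin ligase, so that the protein is degraded quickly and the chromatin can be followed over time. Gene deserts are long stretches with few or no protein-coding genes, and the open sites in them are mostly distal elements rather than promoters.

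The windows were picked because regions with a peak at 0h and none later cluster in them. Their losses against 0h are therefore a description of how they were chosen, given beside the same share over all regions and without a test. With 2 libraries per time, an exact permutation test could not have reached a p of 0.05 in any case. The working name of the set, gene deserts, could not be checked on an hg19 annotation. From general knowledge of the human map, it fits window 5b, which lies between the cadherin genes CDH9 and CDH6, better than the others. Window 5a takes in CDH18 and the end of CDH12, cadherins known from the nervous system. Window 8b reaches into CSMD3, a very long gene, and window 14a surrounds LRFN5, which encodes a synaptic adhesion protein. Window 8a is not a desert in this sense, since it holds ANGPT1, the ligand of the TIE2 receptor, RSPO2, which enhances Wnt signalling, and EIF3E, a translation initiation factor subunit. No region below is assigned to any of these genes.

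At 24h the 5 windows together held fewer open regions than at 0h, and at 1h an intermediate number. A peak was found in 400 and 399 of the regions in the 0h libraries, in 329 and 351 in the 1h libraries, and in 267 and 326 in the 24h libraries. The groups did not overlap between 0h and either later time nor between 1h and 24h, where the nearest libraries held 326 (24h) and 329 (1h). The 24h mean was 74.2% of the 0h mean in the windows and 88.9% over all regions of the genome. For peaks with a −log10 q of at least 10, called strong from here on, the libraries held 195 and 161 regions at 0h, 120 and 127 at 1h, then 108 and 117 at 24h. The 24h mean of strong regions was 63.2% of the 0h mean in the windows and 84.7% in the whole genome. A difference of similar size between the windows and the genome was in place at 1h, when the windows held 69.4% of the 0h mean and the whole genome 91.6%.

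Each window had its own course. Window 5b had the lowest later values relative to 0h: it held 69 regions in each 0h library, 40 and 49 at 1h, then 32 and 40 at 24h. Its strong regions numbered 31 and 22 at 0h, 12 and 13 at 1h, then 14 and 10 at 24h. Both later times were thus below both 0h libraries, and 1h and 24h overlapped. Window 5a held 79 regions in each 0h library, 62 and 64 at 1h, then 58 and 67 at 24h, so both later times lay below 0h and overlapped each other. Window 8b held 67 and 66 regions at 0h, 55 and 56 at 1h, then 40 and 55 at 24h. In window 8a the 1h libraries, with 113 and 122 regions, were still close to the 0h libraries, with 125 and 122, and the 24h libraries were lower, with 88 and 104. Window 14a differed least in its number of regions, 60 and 63 at 0h, 59 and 60 at 1h, then 49 and 60 at 24h, and its strong regions differed more, with 38 and 27 at 0h, 18 and 21 at 1h, then 18 and 22 at 24h. Over all regions the 24h mean was 88.9% of the 0h mean, against 88.6% in 14a and 52.2% to 79.1% in the other windows. The 1h mean was 95.0%, against 96.7% in 14a, 95.1% in 8a and 64.5% to 83.5% in the others. Strong regions of window 5a numbered 39 and 33 at 0h, 30 and 33 at 1h, then 30 and 32 at 24h. Their 24h mean was 86.1% of the 0h mean, against 84.7% over all regions and 45.3% to 64.0% in the other windows.

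**Figure D1:**
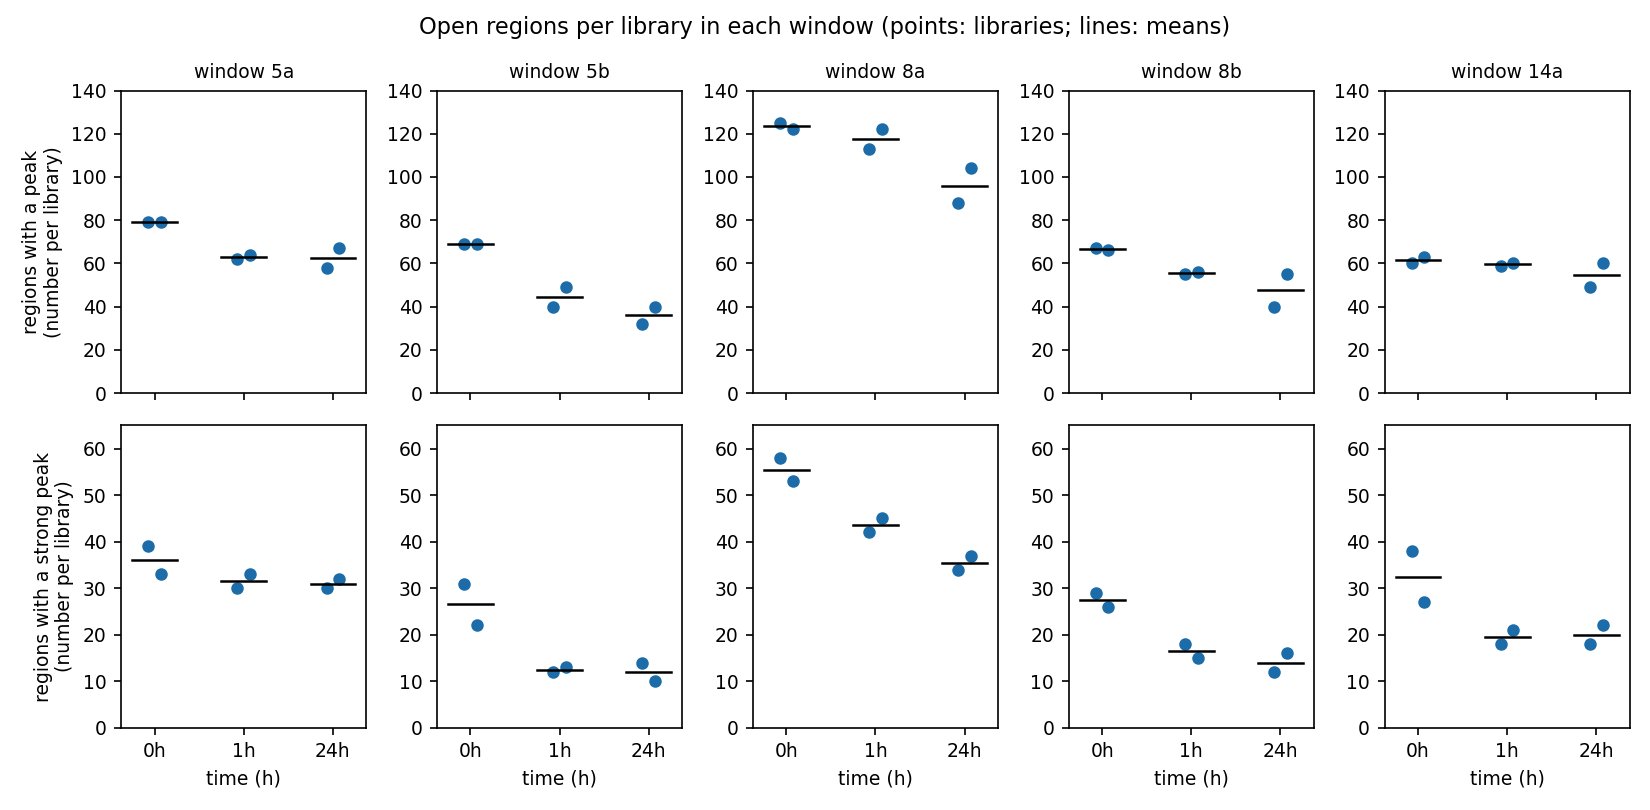
Number of merged regions with a peak (top row) and with a strong peak (bottom row, −log10 q of at least 10) in each library of the 5 windows, over time in hours. Points are libraries and lines are means of 2; in window 5b both 1h and both 24h libraries lie below the 0h libraries in both rows, while in window 8a the 1h libraries reach 122 regions, the value of the lower 0h library.

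Depth moves with time in these lists. Relative depth, read from the most frequent background value in a list, was 10.5 and 8.29 tags per kb at 0h, 8.14 and 8.63 at 1h, then 7.35 and 7.06 at 24h. The part of depth in the counts was not tested as such. The smallest pileup that was still called a peak inside the windows was 7 and 5 tags at 24h, against 7 and 5 tags at 0h. The background at window peaks was the genome-wide floor of each list, with a median of 1.08 and 0.958 tags at 24h, against 1.62 and 0.915 at 0h, and the times overlapped. In the whole lists that median was 1.62 and 1.31 tags at 24h, against 2.22 and 1.25 tags at 0h. When every list was shortened to the 101755 highest-ranked peaks, the count of strong losses given next was 42 in place of 39.

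Of the 325 window regions held by both 0h libraries, 108 had no peak in either 24h library, or 33.2%, against 13.1% over all regions. Of the 148 that were strong in both 0h libraries, 39 had no peak of any strength at 24h, or 26.4%, against 4.02% over all regions. At 1h, 62 of the 325 had no peak, or 19.1% against 7.48%, and 16 of the 148 strong ones had none, or 10.8% against 1.51%. The 3 Mb on either side of each window, outside the windows themselves, held 277 strong 0h regions, of which 16 (5.78%) were lost at 24h. The remainder of chromosomes 5, 8 and 14 lost 4.38% of 7108, and the gene-poor chromosomes 4, 13 and 18 lost 5.97% of 5145. Over losses of any strength, these flanks lost 112 of 596 regions (18.8%) at 24h. In the 1 Mb next to each edge, strong losses at 24h numbered 0 of 8 and 1 of 7 around window 5a, 0 of 2 and 0 of 12 around 5b, 2 of 7 and 0 of 15 around 8a, 0 of 15 and 0 of 4 around 8b, and 0 of 8 and 0 of 5 around 14a. The megabase between windows 8a and 8b is counted for both. Losses of any strength reached 8 of 21 above 5a, 6 of 12 above 8b and 5 of 14 above 14a, shares no lower than in those windows as wholes, and were 1 of 22 above 5b and 0 of 18 below 5a.

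By window, the strong regions lost at 24h were 10 of 20 in 5b, 6 of 21 in 8b, 7 of 27 in 14a, 7 of 30 in 5a and 9 of 50 in 8a. At 1h the order was not the same. Window 5b had already lost 6 of its 20 strong regions and window 5a 5 of its 30, whereas window 8b had lost 3 of 21, window 14a 2 of 27 and window 8a 0 of 50. Over all regions, 1.51% of the strong ones were lost at 1h. These small counts moved with the settings. In window 8a the strong losses at 1h were 6 when a peak needed a −log10 q of 5, 4 in lists of one length, 3 with 50% cover of a region by its peak, and, with 1h replicate 1 or 2 left out, 3 or 2. Its losses of any strength at 1h were 7 of 97 as called, or 7.22% against 7.48% over all regions. They were 14 with a −log10 q of 5 (18.7% against 8.63%). Without 1h replicate 1 and 2 they were 18 and 13 (18.6% against 11.3%, and 13.4% against 12.4%). Without 0h replicate 1 and 2 they were 24 and 16 (19.7% against 15.3%, and 12.8% against 13.5%). Strong losses at 1h, with 0h replicate 2 left out, were 5 in window 14a and 11 in window 5b. Strong losses of window 14a at 24h were 11 when either 24h replicate 2 or 0h replicate 2 was left out, 11 with a −log10 q of 5, and 12 with 50% cover. Window 8b had 6 at 1h with a −log10 q of 5, the share then being 28.6% against 12% in 8a and 14.8% in 14a. In lists of one length, 8a lost 8% and 14a 7.41%, so the order of these windows at 1h was not fixed. Window 5b had the highest share of strong losses at both times in each setting run. Differences between windows were not tested, since the windows were chosen on these counts.

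**Figure D2:**
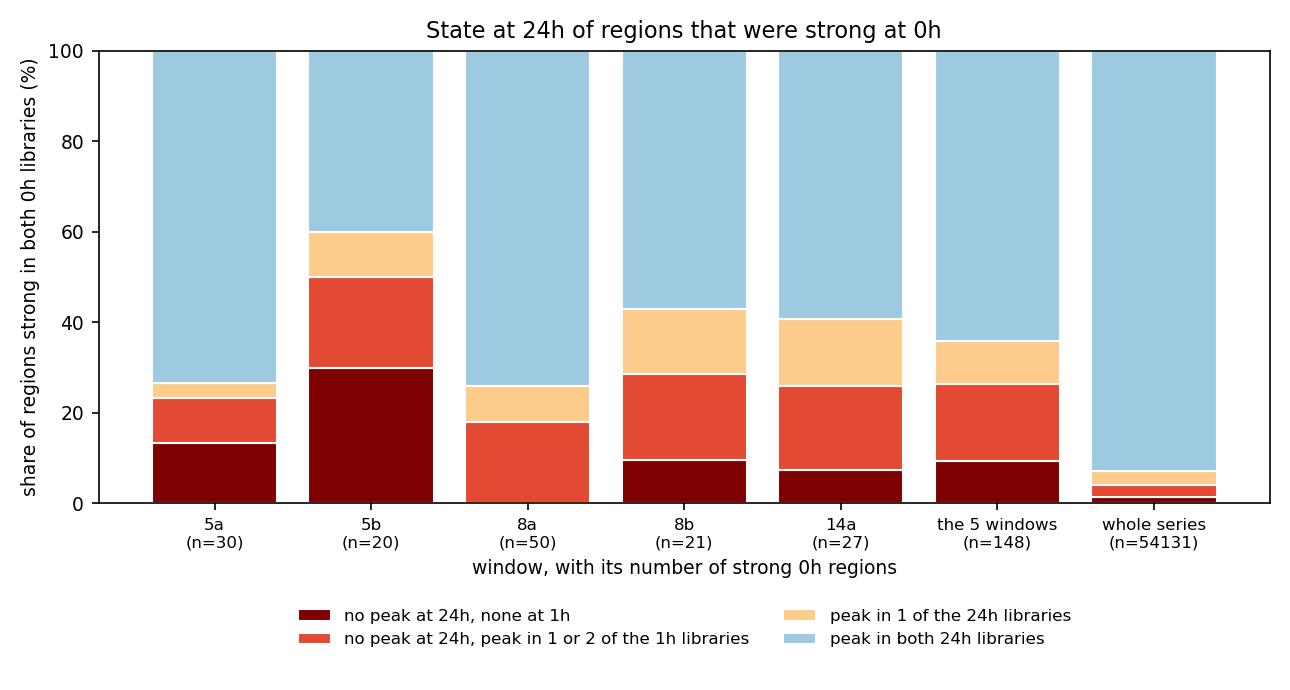
24h state of each region that was strong in both libraries at 0h, as a percentage of those regions (y axis), for each window, the 5 windows together and the whole series, with the number of regions in brackets. Dark and light red are regions without a peak at 24h, split by whether any 1h library held a peak; red reaches 50% in window 5b and 4.02% in the whole series, and window 8a has no dark red.

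Window 5b contains the most emptied stretch of the 5 windows. Its longest interval without a peak measured 176 and 197 kb in the 0h libraries, 403 and 228 kb at 1h, and 681 and 673 kb at 24h. The 24h intervals, 5:29078004-29758999 and 5:29085600-29758999, were nearly the same in both libraries. Inside them lay 9 neighbouring regions of both 0h libraries, from 29162307 to 29750941, all of which had no peak at 24h. In the other windows the longest run of neighbouring lost regions was 5 in 5a, over 206 kb, 4 in 8a, over 163 kb, 3 in 8b, over 52.0 kb, and 2 in 14a, over 23.05 kb. The longest intervals without a peak in those windows were 269 and 257 kb at 24h in 5a, against 167 and 174 kb at 0h, and 249 and 173 kb at 24h in 8a, against 142 and 127 kb at 0h. In 8b they were 213 and 235 kb at 24h, against 217 and 241 kb at 0h. In 14a they were 227 and 214 kb at 24h, against 166 and 214 kb at 0h. The median interval in 8b was 54.4 and 39.0 kb at 24h, against 32.6 and 29.5 kb at 0h, without overlap. It was longer at 24h without overlap in 5b as well (49.1 and 37.2 kb, against 25.4 and 31.9 kb). The same held in 8a (20.8 and 17.0 kb, against 13.3 and 15.9 kb) and 14a (49.5 and 42.7 kb, against 32.0 and 29.3 kb). In 5a the times overlapped.

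The strongest lost regions of window 5b had folds, the deposited ratio of the summit pileup to the local background, far above the limit of detection. Region 5:29750443-29750941 had folds of 14.3 and 15.01 at 0h, from 50 and 33 tags, and no peak in the 4 later libraries. Region 5:29860035-29860603 had 16.0 and 13.2 at 0h and none later. Region 5:29521308-29521773 had 18.3 and 11.5 at 0h and none later. The fourth named region, 5:28880810-28881515, took longer: its folds were 13.8 and 16.0 at 0h, then 7.50 and 4.20 at 1h, with no peak at 24h. Of the 10 strong losses in this window, 6 lacked a peak in both 1h libraries, whereas 4 still had one in each. Some strong sites among these kept their peaks. Region 5:29955411-29956221, for example, had folds of 12.8 and 11.5 at 0h, 12.6 and 11.8 at 1h, then 13.9 and 12.4 at 24h, and it lies 10.5 kb from a strong lost region, 5:29944423-29944933, with 14.6 and 8.50 at 0h and no later peak. Region 5:28737771-28738235 also kept a peak in all 6 libraries, with folds of 17.7 and 14.1 at 0h, 10.8 and 15.2 at 1h, then 11.1 and 14.7 at 24h, which overlap between times.

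Window 5a had most of its strong losses between 20 and 21 Mb, where 5 of 12 strong regions were lost at 24h, with 1 of 6 in the megabase before and 1 of 12 in the one after. Its strongest lost region, 5:20497318-20497798, had folds of 12.1 and 15.6 at 0h, then 7.08 and 8.41 at 1h, where it was still strong in both libraries, and no peak at 24h. Regions 5:19880750-19881311, with 12.0 and 14.4 at 0h, and 5:21171199-21171755, with 14.5 and 9.40, had no peak from 1h on. Region 5:20129680-20129965, with 12.2 and 9.40 at 0h, had none from 1h on either. The 2 strongest regions of the window, 7.27 kb apart, stood at its low end, far from these. Region 5:19322774-19323418 had folds of 16.9 and 23.4 at 0h, 17.6 and 16.6 at 1h, then 18.3 and 18.4 at 24h. Region 5:19314878-19315504 had 15.7 and 18.7 at 0h, 15.5 and 16.9 at 1h, then 16.6 and 17.7 at 24h. In both, the later folds lay within or close to the range of the 0h libraries, and only in the first did the 1h and 24h libraries not overlap.

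In window 8a, with full lists and any called peak counted, 0 of 50 strong regions were without a peak in both 1h libraries, and all 9 strong regions lost at 24h still had a peak in 1 (5 regions) or both (4 regions) of them. Those 13 peaks had a median fold of 4.58 and a highest fold of 7.33. Region 8:109817327-109817700 had folds of 10.7 and 13.1 at 0h, 5.00 in 1h replicate 1 and no peak in the other 3 later libraries. Region 8:108314511-108315434 had 13.4 and 10.2 at 0h and 4.17 in 1h replicate 1. Region 8:109218711-109219516 had 10.8 and 10.9 at 0h, then 5.42 and 7.33 at 1h. The strongest region lost at 1h was not strong in both 0h libraries: 8:109612332-109612741 had folds of 6.47 and 7.24 at 0h and no later peak. Strong losses lay between 108 and 110 Mb, with 6 of 19 and 3 of 14 strong regions in those megabases, and 0 of 17 between 107 and 108 Mb. That first megabase also holds the strongest region of all 5 windows, 8:107738029-107738575, with folds of 22.0 and 26.3 at 0h, 20.5 and 23.3 at 1h, then 25.1 and 24.2 at 24h, from 74 to 91 tags. A lost and a kept site can be close here too. Region 8:109799347-109800098, with 15.6 and 13.6 at 0h, 15.02 and 15.6 at 1h, then 12.97 and 13.5 at 24h, kept its peaks 17.2 kb from the lost 8:109817327-109817700.

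In window 8b, 5 of the 6 strong losses fell between 112 and 113 Mb and 1 just beyond it. That one, 8:113038686-113039256, had the highest mean percentile of fold in the 0h lists among the strong losses of the 5 windows (98.4). It had folds of 16.6 and 16.9 at 0h, from 60 and 40 tags, and 7.92 and 7.99 at 1h, from 18 tags in each library, and no peak at 24h. The libraries of a time lay close together and the times did not overlap. Region 8:112818859-112819288 had 12.2 and 11.5 at 0h and 4.62 in 1h replicate 2. Region 8:112879774-112880244 had 9.54 and 10.4 at 0h and 3.33 in 1h replicate 1. Region 8:112449786-112450144 had 9.93 and 9.40 at 0h and none later, while 8:112428389-112428924, 20.9 kb away, had 19.5 and 15.3 at 0h, 18.5 and 20.02 at 1h, then 15.7 and 18.3 at 24h. Region 8:112907103-112907540 had its highest folds at 24h, with 10.7 and 14.1 at 0h, 12.9 and 13.9 at 1h, then 16.4 and 14.8 at 24h.

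In window 14a, 6 of the 7 strong losses lay between 42 and 43 Mb, where 14 regions were strong at 0h, and the megabase before had 0 of 9. Region 14:42044593-42045044 had folds of 16.0 and 12.0 at 0h and no later peak, and its neighbour 14:42021997-42022510, with 9.16 and 8.35 at 0h, had none later either. The other 5 strong losses still had a peak in both 1h libraries. Among them, 14:42426448-42427623, which spans 1176 bp, had 13.1 and 11.3 at 0h, then 6.67 and 7.19 at 1h. Region 14:42105786-42106478 had 9.92 and 9.68 at 0h, then 7.50 and 5.04 at 1h. The kept strong region 14:41990780-41991544, 30.5 kb from 14:42021997-42022510, had folds of 14.01 and 16.7 at 0h, 17.1 and 16.2 at 1h, then 15.7 and 14.1 at 24h. Region 14:42661931-42663134 had 13.4 and 14.2 at 0h, 13.1 in each library at 1h, then 13.8 and 12.6 at 24h.

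**Figure D3:**
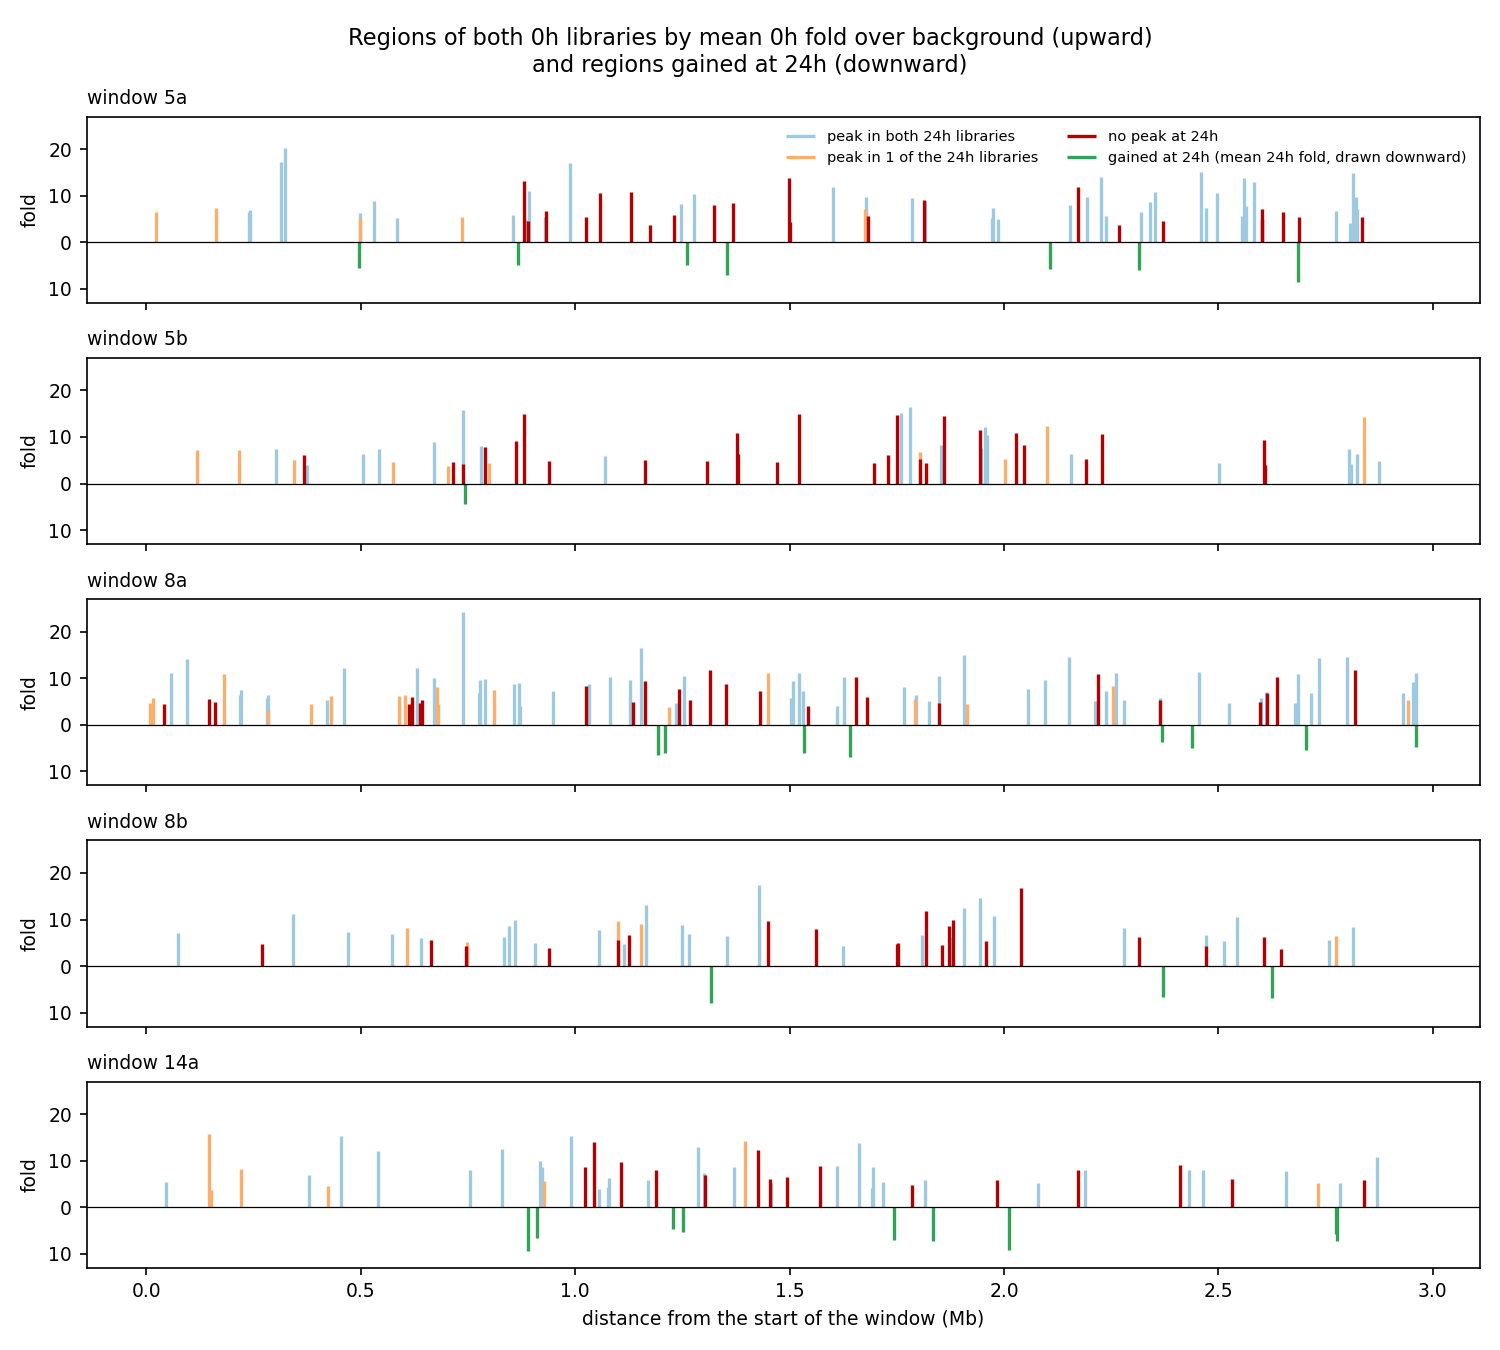
Regions held by both 0h libraries, by distance from the start of each window (x axis, Mb) and mean fold over background at 0h (upward bars), coloured by their state at 24h, with regions gained at 24h drawn downward by their mean 24h fold. Red bars without a 24h peak stand between blue bars of kept regions in every window, and window 5b has a long stretch with red bars only.

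Across the 5 windows, the 39 strong losses divided into 14 with no peak in either 1h library, 8 with a peak in 1 and 17 with a peak in both. In the whole genome the corresponding numbers were 753, 546 and 878 of 2177. Of the 25 that still had a peak at 1h, 24 had a lower within-list percentile of fold in their 1h peaks than in both 0h lists, and 1 had not; over all regions it was 1376 of 1424 (96.6%). Since the rule for strong losses uses the 0h and 24h peaks, this share describes the choice of regions. Their 42 peaks at 1h had a median fold of 5.04 and a highest fold of 8.83, and the 0h peaks of all 39 had a median of 10.2 and a lowest of 7.25. Only 2 of the 17 with a peak in both 1h libraries were strong in both, 5:20497318-20497798 and 8:113038686-113039256, both described above. Few regions without a peak at 1h had one at 24h: of the 16 strong losses at 1h, 14 lacked a peak at 24h as well, 2 showed one in a single library and 0 in both. Over all regions, 753 of 815 (92.4%) lacked one at 24h and 11 had one in both. Of the 62 losses of any strength at 1h, 54 (87.1%) lacked a peak at 24h as well and 0 showed one in each 24h library, whereas over all regions 5901 of 7438 (79.3%) and 396 did. The 1h and 24h comparisons share the 0h libraries, so these counts are not independent.

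**Figure D4:**
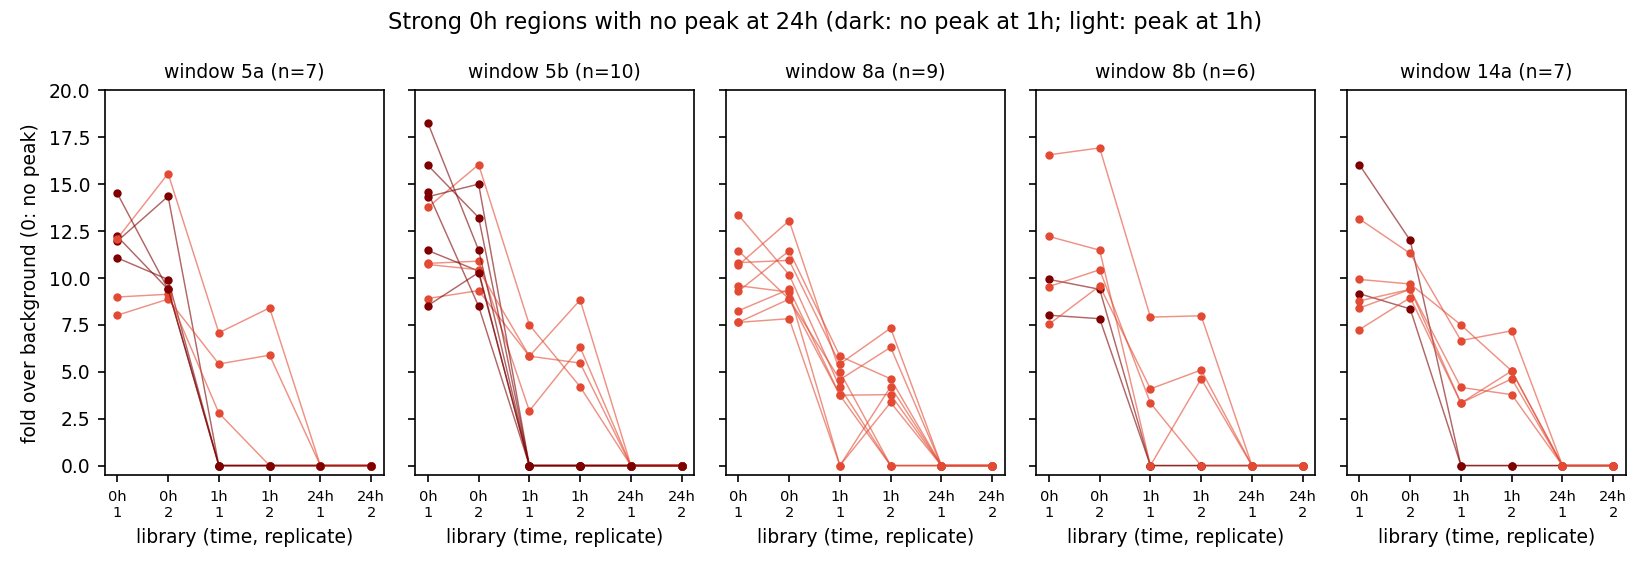
Fold over background in the 6 libraries (x axis, time and replicate) for the 39 regions that were strong in both 0h libraries and had no peak at 24h, by window; 0 stands for no peak. Dark red regions had no peak at 1h and light red ones had a peak in at least 1 library, with a highest fold of 8.83; all 9 regions of window 8a are light red.

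Between 1h and 24h, 42 of the 276 regions common to the 1h libraries were lost, or 15.2% against 6.42% over all regions. Among the 102 strong ones, 2 were lost, the pair just named, or 1.96% against 0.0896%. Of the 42, 31 were held by both 0h libraries as well, so they are among the losses for which the windows were chosen. The pair belongs to the 39 strong losses against 0h. These shares therefore largely describe the choice of the windows. Gains from 1h to 24h numbered 12 of 232 regions held by both 24h libraries, or 5.17% against 3.85% over all regions. In the 3 Mb on either side the share was higher, at 5.98% (30 of 502). Of the 91 strong 24h regions in the windows, 0 were gained, against 0.151% over all regions. Window 14a, which had lost 7 of its 52 regions by 1h, lost 12 of 50 between 1h and 24h; its 7 were 14 when 0h replicate 1 was left out and 11 when 1h replicate 2 was. In window 5b the counts were 21 of 56 by 1h and 8 of 35 from 1h to 24h.

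New open sites were fewer and weaker. At 24h, 28 of the 232 window regions held by both libraries had no peak at 0h, or 12.1% against 6.54% over all regions and 11.2% in the 3 Mb on either side (56 of 502), and at 1h 18 of 276, or 6.52% against 3.93%. Of the strong 24h regions 3 of 91 had been gained, or 3.30% against 0.748% over all regions and 4.17% on either side (10 of 240), and of the strong 1h regions 1 of 102, or 0.980% against 0.0338%. The 9 gains of window 14a, among 43 regions, and the 7 of window 5a, among 53, stood against 1 in window 5b among 27, 8 in 8a among 75 and 3 in 8b among 34. The strongest, 14:41888921-41889199, had no peak at 0h, 5.04 in 1h replicate 2, and 9.15 and 9.71 at 24h. Region 5:21685155-21685550 had 8.41 in 1h replicate 2 and 8.39 and 8.68 at 24h. Region 14:43010692-43011349, the strong gain at 1h, had 7.08 and 12.2 at 1h, then 8.18 and 10.3 at 24h. Region 8:112315564-112315860 had 5.00 and 6.73 at 1h, then 7.22 and 8.68 at 24h. Region 8:108641889-108642186 had 6.67 and 5.46 at 1h, then 7.70 and 6.13 at 24h. The gain in window 5b, 5:28743417-28743751, was weak, with 4.58 and 3.78 at 1h, then 4.33 and 4.598 at 24h.

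At 24h the share of lost window regions was similar in the 3 upper steps of 0h strength and higher in the 2 lower ones, and at 1h it was lowest in the 2 upper steps. Because the windows were chosen for such losses, these shares describe the choice. Regions of both 0h libraries were sorted by their mean percentile of fold in the 0h lists. Above the 80th percentile, 20 of 74 window regions were lost at 24h, or 27.03%, and 2.58% of 23399 regions elsewhere. Between the 60th and 80th percentiles it was 23 of 77, or 29.9%, and 6.01% elsewhere, and between the 40th and 60th it was 21 of 76, or 27.6%, and 13.3% elsewhere. Between the 20th and 40th, 35 of 78 (44.9%) were lost, and 24.9% elsewhere. In the lowest step 9 of 20 (45.0%) were lost, and 30.4% elsewhere. At 1h the shares in the windows were 13.5%, 11.7%, 18.4%, 26.9% and 40% from the highest step to the lowest, and 0.846%, 2.34%, 6.63%, 15.5% and 21.3% elsewhere. In median fold at 0h, the 39 strong losses were not set apart from the 95 strong window regions kept in both 24h libraries. They were somewhat narrower in both 0h libraries, and their highest folds were lower, with 18.3 and 16.9 against 22.0 and 26.3. Their median folds were 10.7 and 9.92 in the 0h libraries against 9.98 and 10.6, and their median widths 482 and 407 bp against 519 and 429 bp. Elsewhere in the genome, strong lost regions were narrower, with 435 and 339 bp, than strong kept ones, with 638 and 551 bp.

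**Figure D5:**
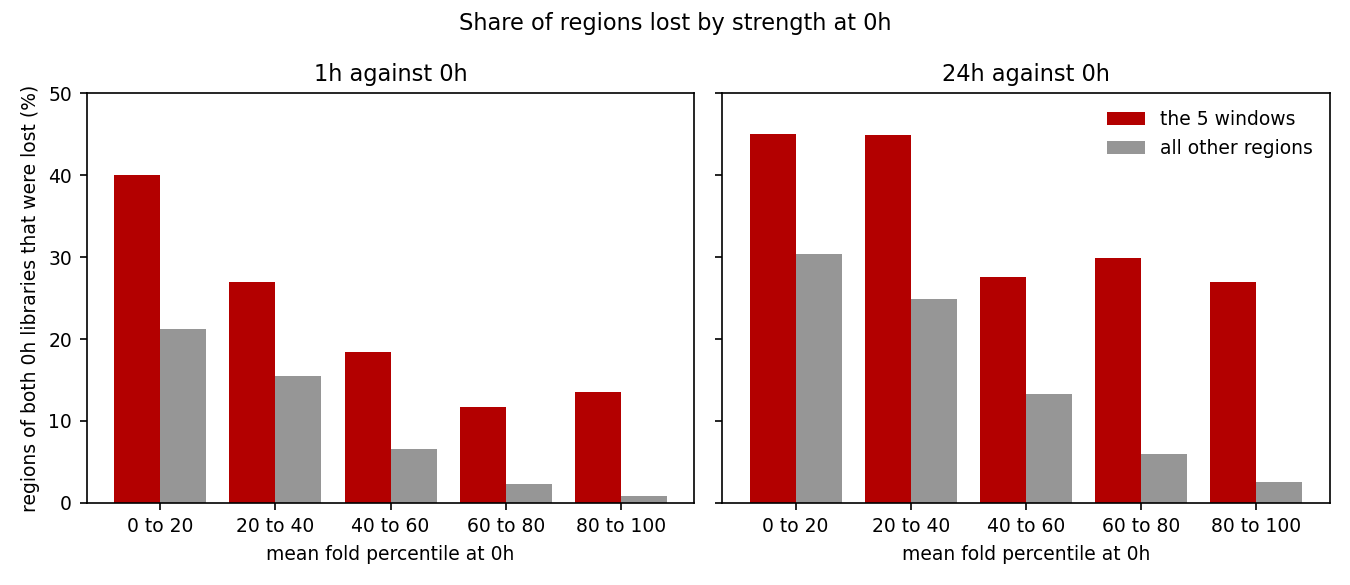
Share of regions of both 0h libraries that had no peak at 1h (left) or 24h (right), in percent, by steps of 20 percentiles of mean fold in the 0h lists, for the 5 windows (red) and all other regions (grey). At 24h the highest step stands at 27.03% in the windows and 2.58% elsewhere.

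Regions with a peak in every library had a similar median rank at 0h and 24h in the 5 windows together, while single regions moved to either side. In lists of one length, 144 of the 598 window regions had a peak in all 6 libraries. Their median percentile of fold was 66.3 at 24h, against 63.7 at 0h, with a median difference of 0.55. Percentiles in both 24h lists were below both 0h lists for 33 of them (22.9%, background 19.3%) and above for 45 (31.3%, background 29.1%), so the shares were near the background. Only window 8a had more below than above, with 5 of 45 above and 10 below. Window 5a had 19 of 35 above and 7 below. The counts above and below were closer in 5b (5 and 3 of 16), 8b (8 and 6 of 23) and 14a (8 and 7 of 25). In all, 167 of the 325 regions common to the 0h libraries (51.4%) kept a peak in all 6 full lists, against 73.1% over all regions, from 18 of 56 in window 5b to 40 of 67 in window 5a. Of the 148 regions strong at 0h, 63 (42.6%) were strong in both 24h libraries and 77 (52.0%) in both 1h libraries, and over all regions 73.8% and 82.4% were.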

How the data were processed

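One peak list per library was used, without pooling of replicates. The authors aligned to hg19 and called peaks with MACS2, and the submitters' processing notes also list fastp, FastQC and Bowtie2. Versions, parameters, any shift for the transposase cut and any duplicate removal are not given in the sources used here. Fold (a ratio), −log10 p and −log10 q are the authors' deposited MACS2 values. The score column, which the authors deposited as −log10 q times 10 without decimals, was not used. The lowest −log10 q was 1.30 to 1.32 in the lists, which corresponds to a q threshold of 0.05.

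Autosomal and X peaks were merged at 1 bp of overlap (Python 3.11.15, pandas 2.3.3, scipy 1.17.1). A region was lost when both earlier libraries and neither later library held a peak, and gained in the reverse case; a strong loss needed a −log10 q of at least 10 in both earlier libraries. Pileups were recovered from fold and −log10 p, assuming MACS2's pseudocount of 1 and Poisson p; whole numbers matched within 0.001 for 100.0% of peaks. Tags per kb are the most frequent background divided by the shortest peak. The recovery, merging and calls were checked on simulated lists. Folds describe peaks within their own list. Named regions were, per window, the 3 strongest strong losses at 24h, the next strongest loss at 1h, the 2 strongest held in all 6 libraries and the strongest gain at 24h; others named were chosen after their values were seen. The windows, definitions and rules were chosen with earlier results of these data known. No genome of the build was used, so no sequence, motif or gene assignment is given. Alternatives were another minimum of −log10 q, lists of one length, 50% cover, 500 bp summit windows, other limits for strong peaks, omission of each library and pairing by replicate number.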

Additional observations from a re-analysis of the deposited data

How the results depend on the processing

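In the 5 windows together, the share lost or gained stayed above the share over all regions in each of the 10 to 12 settings run for each of the 8 counts. For losses against 0h, this describes the choice of the windows. For losses from 1h to 24h it largely does so too, since 31 of those 42 were also held by both 0h libraries. A single window could lie below, as 8a did at 1h as called (7.22% against 7.48%). Strong losses at 24h (39) were 76 when strong began at a −log10 q of 5 and 23 at 15; strong losses at 1h (16) were 40 and 8 under the same limits, and 29 when presence needed a −log10 q of 5. In lists of one length, gains were 48 at 24h (28 as reported) and 32 at 1h (18), and losses from 1h to 24h were 27 (42). With 50% cover, gains at 1h were 29, and with a −log10 q of 5, losses from 1h to 24h were 22. The other of these 8 counts were within 1.5 times under these settings and summit windows. Of the counts of losses by window, 15 of 20 were within 1.5 times with a −log10 q of 5, 19 in lists of one length, 17 with 50% cover and 5 under the replicate block. Counts of strong losses by window moved most with the limit for strong peaks. When strong began at a −log10 q of 5, 0 of 10 were within 1.5 times, and at 15, 3 of 10 were so or unchanged. Leaving out each library gave 40 to 54 strong losses at 24h, 18 to 28 at 1h (28 without 0h replicate 2), 118 to 159 and 79 to 109 losses of any strength (109 without 0h replicate 1), 40 to 73 and 26 to 49 gains, and 51 to 81 losses and 18 to 56 gains from 1h to 24h; fewer libraries then had to meet the condition. Gains were highest without 24h replicate 1 (73 and 56) or, at 1h, its replicate 1 (49). Within-list percentiles of fold did not deviate together by replicate number (correlations of 0.042, 0.047 and 0.017 over regions held in all 6 lists). Such percentiles cannot show a difference that runs through a whole list. Replicate 1 had fewer peaks than replicate 2 at each time. Its median peak was wider, with 388 against 281 bp at 0h, 416 against 370 at 1h and 341 against 327 at 24h. Whether the number marks a shared batch was not tested, and the main counts did not use it. As a replicate block, the mean over both same-numbered pairs gave 57 strong losses at 24h and 30.5 at 1h, 183 and 129 losses of any strength, 80 and 69.5 gains, and 103.5 losses and 60 gains from 1h to 24h, since each pair alone sets a looser condition. These means hide a difference between the pairs. Strong losses were 71 in the replicate 1 pair and 43 in the replicate 2 pair at 24h, and 36 and 25 at 1h. Gains differed in the other direction, with 54 and 85 at 1h. Of the 25 lost or gained regions named by rule, 23 to 25 kept their call. Peak lists hold no value for a region without a peak, so a lost region is known only to lie below the limit of detection.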

Other observations

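Among the 2889 overlapping stretches of 3 Mb with any strong 0h region, the median had 50 such regions and 2 strong losses at 24h. At least 10 strong losses, the count of window 5b, were found in 6 stretches, and at least 9, the count of window 8a, in 20. The counts of windows 5a and 14a (7 each) were reached in 105 stretches and that of window 8b (6) in 187, so by number alone those windows were not at the extreme. Of the 598 window regions, 143 (23.9%) had a peak in 1 library only, against 22.5% over all regions.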
